A study of Mus musculus with 6 samples.

Results

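Collagen genes were followed in RNA-Seq of hypothalamic neural stem and progenitor cells (NSC/NPCs) from male mouse fetuses. Every gene whose symbol has the form Col, a number, a, a number was taken, which gave 44 of the 22048 genes in the table. Among them, 11 encode fibrillar collagens, 8 encode collagens of basement membranes (6 of type IV and the multiplexins Col15a1 and Col18a1), and 25 encode other collagens. Pregnant C57BL/6 mice aged 8 weeks were gavaged from E5.5 through E11.5, the HE (high estradiol) group with estradiol valerate at 100 μg/kg/d and the NC (control) group with corn oil. Cells were taken from the fetuses at E14.5. NC samples carry the treatment label untreated. There were 3 HE and 3 NC samples, each holding first-passage cells of 2 mice, grown as free-floating spheres in medium with EGF, bFGF and B27. The descriptions do not say whether samples of a group came from separate litters, so p-values measure the spread between these samples. The comparison of HE with NC asks how the mRNA of the cells differed after exposure to high maternal estradiol.

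Collagens are proteins of chains wound together into a helix and secreted into the extracellular matrix. Fibrillar collagens assemble into the banded fibrils of connective tissue, and in the brain they lie mainly in the meninges and around blood vessels. Type IV collagens form the meshwork of basement membranes. Chains of Col4a1 and Col4a2 combine in the form found in nearly all basement membranes, whereas Col4a5 combines with Col4a6, or with Col4a3 and Col4a4, in specialised ones. The remaining collagens coat fibrils, form beaded filaments or span the cell membrane. In the developing brain, neural stem cells reach the basement membrane beneath the meninges with their end feet.

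Reads on genes numbered 16078675 (HE3) to 19137059 (NC2), and 1 read on a gene of 1 kilobase was worth 0.0523 to 0.0622 RPKM (reads scaled by gene length in kilobases and by the library's total). Collagen genes took 0.429 to 0.506% of these reads in NC and 0.301 to 0.561% in HE NSC/NPCs. Sox2, a marker of the labelled cell type, stood at 209, 209 and 195 RPKM in NC1, NC2 and NC3 and at 176, 172 and 97.3 RPKM in HE1, HE2 and HE3, and Nes, another marker, stood at 198, 158 and 204 and at 154, 161 and 247 RPKM. Values below are in the same order of samples. Of a list of 10 neural stem cell markers, 2 averaged higher and 8 lower in HE. Their median log2 fold change was -0.34, beside -0.06 over all genes tested. HE3 had the lowest level of 24 of the 41 collagen genes that could be tested (58.5%), against 44.4% of all 13952 genes tested. Its log2 level minus the mean of HE1 and HE2 had a median of -0.90 over the 41 collagen genes and of -0.16 over all genes. With all genes cut by length into 4 equal bins, that median was -0.05, -0.10, -0.18 and -0.25 from the shortest to the longest bin, and 28 of the 41 collagen genes fell in the longest bin. Whether RNA quality had a part in the low collagen levels of HE3 was not tested. The main comparisons are therefore also given without HE3.

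To show what lies upstream of the collagen genes that the results turn on, the stretches before the start of Col3a1, Col1a2, Col4a5 and Col4a6 were read from the RefSeq promoter table of GRCm38.p6, on the strand of each gene and without bases inside the span of a protein-coding gene. Capitals mark a CCAAT box (CCAAT) or GC box (GGGCGG) on either strand and a TATA box (TATAAA) on the strand of the gene only. The stretches lie at chr1:45311288-45311537 (plus strand), chr6:4505368-4505617 (plus strand), chrX:141475169-141475369 (plus strand) and chrX:141474096-141474326 (minus strand).
Col3a1: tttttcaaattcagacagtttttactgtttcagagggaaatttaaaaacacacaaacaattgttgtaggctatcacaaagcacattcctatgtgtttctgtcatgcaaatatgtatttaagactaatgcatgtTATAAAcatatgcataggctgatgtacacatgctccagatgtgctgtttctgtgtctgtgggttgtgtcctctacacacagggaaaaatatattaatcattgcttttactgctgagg
Col1a2: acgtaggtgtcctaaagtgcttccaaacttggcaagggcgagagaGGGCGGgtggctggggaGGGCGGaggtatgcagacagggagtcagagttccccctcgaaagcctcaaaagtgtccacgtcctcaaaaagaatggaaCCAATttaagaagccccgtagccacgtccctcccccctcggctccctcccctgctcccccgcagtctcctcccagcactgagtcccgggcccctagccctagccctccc
Col4a5: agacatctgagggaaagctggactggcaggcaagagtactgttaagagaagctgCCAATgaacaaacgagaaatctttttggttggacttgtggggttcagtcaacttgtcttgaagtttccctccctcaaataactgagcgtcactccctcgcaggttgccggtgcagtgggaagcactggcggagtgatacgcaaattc
Col4a6: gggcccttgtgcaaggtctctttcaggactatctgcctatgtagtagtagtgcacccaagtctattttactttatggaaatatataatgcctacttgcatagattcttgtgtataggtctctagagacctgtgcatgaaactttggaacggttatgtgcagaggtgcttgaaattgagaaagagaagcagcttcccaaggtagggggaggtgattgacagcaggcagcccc

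Col3a1 held 1 TATA box and neither of the other motifs. Col1a2, of the same fibril class, held 1 CCAAT box and 2 GC boxes in a stretch of 62.0% GC, against 35.2% in Col3a1. Col4a5 held 1 CCAAT box in the 201 bases printed, and no match lay in the 231 bases of Col4a6. Windows of 250 bases before the start were given for 35 of the 44 collagen genes, 38 windows in all. CCAAT was in 13 of these (34.2%) and in 33.8% of all 32851 windows of the table. GGGCGG was in 22 of the 38 (57.9%) and in 32.7% of all windows. The 22 include 2 overlapping windows of Col6a2. GC content had a median of 52.4% over all windows and ran from 35.2% (Col3a1) to 76.4% (Col5a1) over the collagen windows. Its part in the share with GGGCGG was not tested. TATAAA was in 5 (13.2%, Col3a1 and Col13a1 among them) and in 7.59% of all. The full palindromic estrogen response element, searched on both strands, was in none of the 38 and in 0.0639% of all windows. AGGTCA, an arm of that element and so able to overlap it, was on either strand in 8 (21.1%) and in 14.0%. These are matches of letters in short windows only.

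Summed over the 44 genes, collagen mRNA overlapped between groups, whereas the shares taken by fibrillar and basement membrane collagens did not. The summed level was 683, 683 and 579 RPKM in NC and 745, 632 and 391 RPKM in HE NSC/NPCs (648 ± 60.3 and 590 ± 181, mean ± SD, n = 3 each). The groups overlapped, and HE held both the highest and the lowest sample. Sums compare mRNA per length, so a long and a short gene count alike.

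Fibrillar collagens summed to 151, 95.7 and 113 RPKM in NC and to 208, 169 and 127 RPKM in HE NSC/NPCs. As a share of all collagen RPKM they made up 22.1, 14.0 and 19.5% in NC and 27.9, 26.7 and 32.4% in HE NSC/NPCs. The sums overlapped because HE3 lay below NC1, whereas the shares did not overlap. Basement membrane collagens summed to 316, 380 and 282 RPKM in NC and to 313, 271 and 171 RPKM in HE NSC/NPCs, or 46.3, 55.6 and 48.7% and 42.0, 42.8 and 43.8% of collagen RPKM. Their shares were all lower in HE, again without overlap. The other collagens took 31.6, 30.4 and 31.8% in NC and 30.2, 30.4 and 23.8% in HE NSC/NPCs, with HE3 apart from the other 5 samples. With Col3a1 left out, the fibrillar share was 16.8, 12.4 and 15.9% in NC and 17.6, 17.4 and 23.5% in HE NSC/NPCs, still without overlap but with HE1 and HE2 close to NC1. With Col4a5 and Col4a6 left out, the basement membrane share was 21.2, 16.5 and 27.4% in NC and 24.9, 26.4 and 23.9% in HE NSC/NPCs, and the groups overlapped. No test was made on sums or shares.

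**Figure D1:**
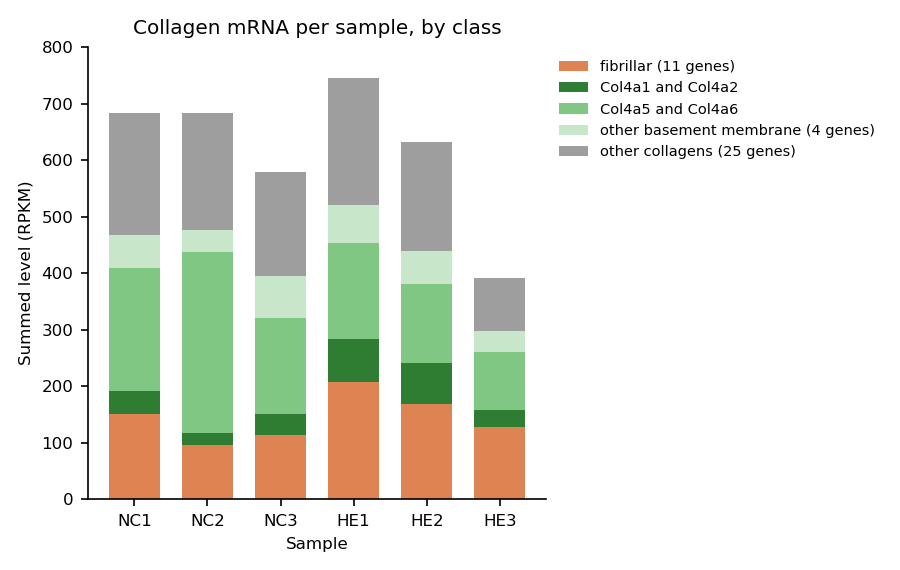
Summed RPKM of the collagen genes in each of the 3 NC and 3 HE samples, stacked by class, with the basement membrane class split into Col4a1 with Col4a2, Col4a5 with Col4a6, and 4 other genes. The Col4a5 with Col4a6 segment runs from 169 to 320 RPKM in NC and from 102 to 170 RPKM in HE NSC/NPCs, and the HE3 bar is the shortest at 391 RPKM.

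Across the classes, 13 collagen genes had a mean over 10 RPKM, 29 had at least 1 RPKM and 15 lay below 1 RPKM. Read counts were above 0 for every collagen gene in every sample. The filter on low counts kept 41 of the 44 and left out Col4a3, Col24a1 and Col6a6, which had 36 to 39 reads over the 6 samples.

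**Figure D2:**
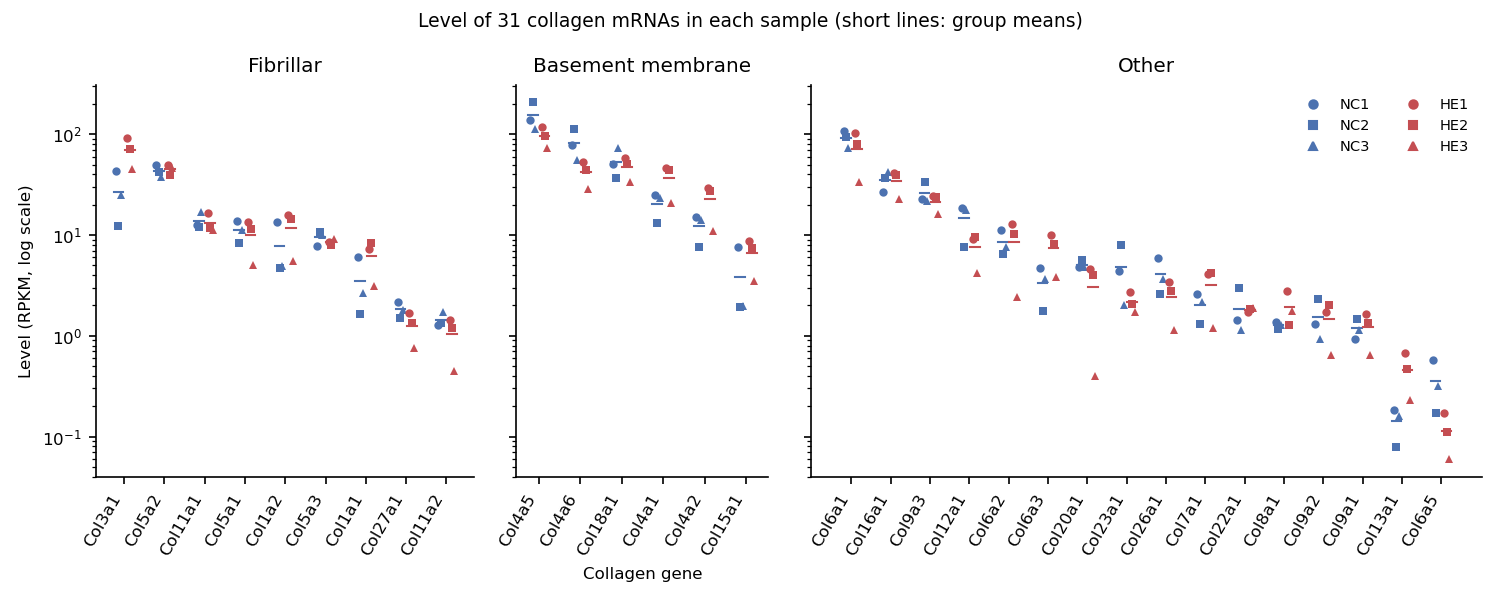
RPKM on a log axis of 31 collagen genes in each sample, by class, with group means as short lines. Col4a5 is the highest at 73.8 to 207 RPKM, HE3 is the lowest point for most genes, and Col3a1 has all 3 HE points above the NC points.

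The fibrillar class was led by Col3a1 and Col5a2. Col3a1 (ENSMUSG00000026043, chromosome 1, 45311538 to 45349706), a fibril collagen of vessels, skin and meninges and a ligand of the receptor Adgrg1 in the developing brain, was at 43.3, 12.2 and 25.0 RPKM in NC and 92.7, 71.6 and 45.7 RPKM in HE NSC/NPCs. All 3 HE samples lay above all NC samples, although HE3 lay close above NC1. The difference was a log2 fold change of 1.50, SE 0.46, limma adjusted p = 0.195. It was 1.78 without HE3 and 1.03 without NC2. Col3a1 took 6.33, 1.78 and 4.31% of collagen RPKM in NC and 12.4, 11.3 and 11.7% in HE NSC/NPCs, with an SD of 2.28 percentage points in NC and 0.568 in HE.

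Col5a2, a chain of type V collagen that helps start fibrils, lies 24624 bases from Col3a1 on the same chromosome. It stood at 49.5, 42.4 and 37.4 RPKM in NC and 49.4, 39.5 and 45.8 RPKM in HE NSC/NPCs. This was the steadiest of the abundant fibrillar genes, with a log2 fold change of 0.062, SE 0.14, limma adjusted p = 0.808. The ratio of Col3a1 to Col5a2 was 0.87, 0.29 and 0.67 in NC and 1.88, 1.81 and 1.00 in HE NSC/NPCs. Its partner chain Col5a1 was at 13.8, 8.27 and 11.2 RPKM in NC and 13.4, 11.6 and 5.02 RPKM in HE NSC/NPCs. Col5a2 was 3.34 to 5.12 times as high as Col5a1 in 5 samples and 9.13 times in HE3, where Col5a1 was low. Col5a3, the third type V chain, was at 7.70, 10.7 and 10.1 RPKM in NC and 8.47, 8.01 and 9.07 RPKM in HE NSC/NPCs. Neither Col5a1 (log2 fold change -0.24, SE 0.38) nor Col5a3 (-0.14, SE 0.15) differed beyond 1 standard error.

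Type I collagen is the main fibril protein of bone, skin and tendon. Its chain Col1a1 was at 6.06, 1.64 and 2.67 RPKM in NC and 7.33, 8.30 and 3.10 RPKM in HE NSC/NPCs, and Col1a2 was at 13.5, 4.68 and 4.97 RPKM in NC and 15.7, 14.3 and 5.49 RPKM in HE NSC/NPCs. In both genes NC2 was the lowest sample, and HE1 and HE2 exceeded every NC sample while HE3 did not. The log2 fold changes were 0.92 (SE 0.53) and 0.65 (SE 0.52), with limma adjusted p = 0.331 and 0.461. They were 1.35 and 1.13 without HE3, and 0.50 and 0.39 without NC2. The ratio of Col1a2 to Col1a1 ranged from 1.73 to 2.86 over the 6 samples.

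Fibril collagens best known from cartilage overlapped between groups. Col11a1 was at 12.6, 12.0 and 17.0 RPKM in NC and 16.4, 11.8 and 11.2 RPKM in HE NSC/NPCs, and Col11a2, which joins it in type XI collagen, was at 1.27, 1.32 and 1.73 RPKM in NC and 1.45, 1.21 and 0.446 RPKM in HE NSC/NPCs. Col27a1 was at 2.16, 1.50 and 1.81 RPKM in NC and 1.68, 1.33 and 0.755 RPKM in HE NSC/NPCs. Their log2 fold changes were -0.085 (SE 0.20), -0.57 (SE 0.39) and -0.56 (SE 0.30), and the groups overlapped for each gene. Col2a1, the main fibril collagen of cartilage, averaged below 1 RPKM, with HE3 at 0.249 RPKM and the other 5 samples at 0.993 to 1.28 RPKM. Over the class, 4 of 10 tested genes were higher and 6 were lower in HE. Their median log2 fold change was -0.11, beside a median of -0.06 over all genes tested, of which 43.8% were higher. Without HE3, 6 were higher and 4 lower, and the median was 0.03.

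In the basement membrane class, Col4a5 and Col4a6 averaged lower and Col4a1 and Col4a2 averaged higher in HE than in NC, though none passed the adjusted test. Col4a5 (ENSMUSG00000031274, chromosome X, 141475370 to 141689236) was the most abundant collagen mRNA per length and was at 139.6, 207 and 113 RPKM in NC and 117, 97.0 and 73.8 RPKM in HE NSC/NPCs. NC2 was the highest sample, and HE1 lay just above NC3, so that the groups overlapped. The difference was a log2 fold change of -0.66, SE 0.26, limma adjusted p = 0.226. Col4a6 (ENSMUSG00000031273, chromosome X, 141165403 to 141474095), which lies 1274 bases from Col4a5 on the opposite strand, was at 77.8, 113 and 56.0 RPKM in NC and 53.0, 43.9 and 28.6 RPKM in HE NSC/NPCs. All HE samples lay below all NC samples, with HE1 just under NC3, and the difference was a log2 fold change of -0.96, SE 0.31, limma adjusted p = 0.196. Without HE3 the log2 fold changes of Col4a5 and Col4a6 were -0.48 and -0.71, and without NC2 they were -0.42 and -0.70.

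Col4a1 (ENSMUSG00000031502, chromosome 8, 11198423 to 11312889) was at 25.2, 13.2 and 23.2 RPKM in NC and 46.3, 43.7 and 20.7 RPKM in HE NSC/NPCs. Col4a2 (ENSMUSG00000031503, chromosome 8, 11312805 to 11449287) was at 15.2, 7.67 and 14.1 RPKM in NC and 29.3, 27.4 and 11.0 RPKM in HE NSC/NPCs. In both genes HE1 and HE2 exceeded every NC sample, HE3 fell within the NC range and NC2 was the lowest. The differences were a log2 fold change of 0.81, SE 0.36, limma adjusted p = 0.258 for Col4a1 and a log2 fold change of 0.80, SE 0.42, limma adjusted p = 0.298 for Col4a2. They were 1.18 and 1.25 without HE3, with unadjusted p of 0.0037 for each and limma adjusted p = 0.147. Without NC2 they were 0.52 and 0.49, so their size depended on single samples of both groups. Both genes start head to head and overlap by 85 bases in RefSeq, so reads in that overlap could be shared, and whether counting used strand is not given in the sources used here.

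Ratios varied less within each pair than between the pairs. Col4a1 was 1.58 to 1.88 times as high as Col4a2 over the 6 samples. Col4a5 was 1.80 to 2.03 times as high as Col4a6 in NC and 2.21 to 2.58 times in HE NSC/NPCs, without overlap. Col4a5 plus Col4a6 over Col4a1 plus Col4a2 was 5.39, 15.4 and 4.53 in NC and 2.25, 1.98 and 3.23 in HE NSC/NPCs. The groups did not overlap, and HE3, whose collagen total was the lowest, was also below every NC sample in this ratio. Ratios here and for other chains were chosen after the values were seen and were not tested.

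**Figure D3:**
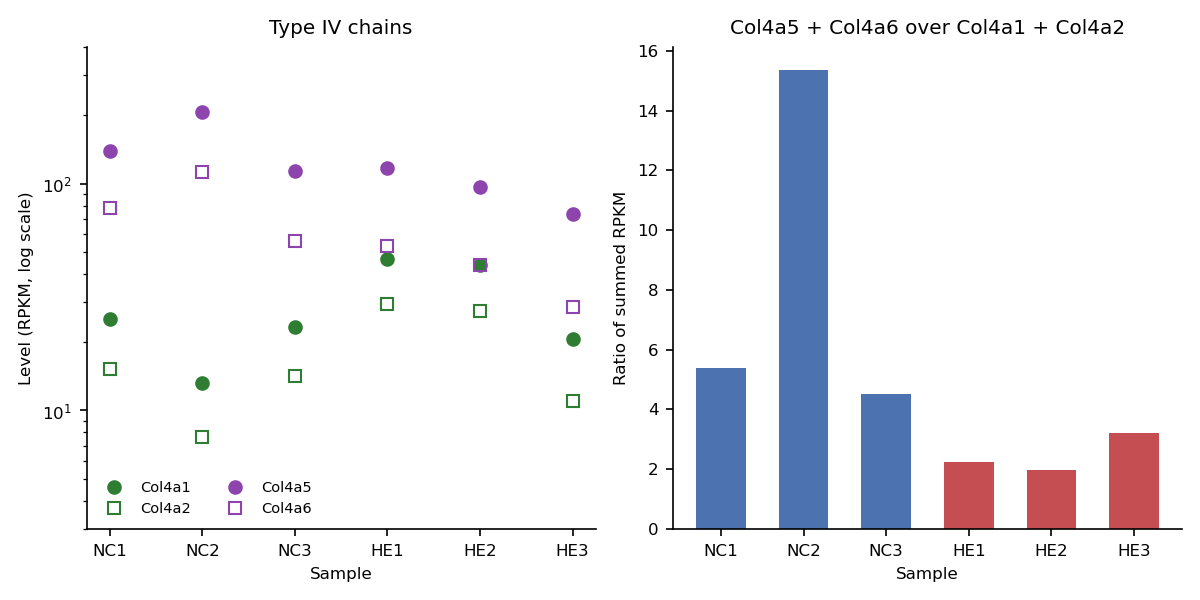
RPKM of the 4 abundant type IV collagen mRNAs in each sample on a log axis (left), and the ratio of Col4a5 plus Col4a6 to Col4a1 plus Col4a2 in each sample (right, linear axis from 0). The ratio is 4.53 to 15.4 in NC and 1.98 to 3.23 in HE NSC/NPCs.

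Col4a3 and Col4a4, the partners of Col4a5 in kidney and other specialised basement membranes, were near the limit of counting, at 3 to 10 and 5 to 27 reads per sample. The multiplexins carry long sugar chains in basement membranes, and fragments of Col18a1 act on vessel growth. Col18a1 was at 50.7, 37.1 and 72.8 RPKM in NC and 58.5, 51.1 and 33.7 RPKM in HE NSC/NPCs, with NC3 the highest and HE3 the lowest. Col15a1 was at 7.60, 1.94 and 2.00 RPKM in NC and 8.78, 7.47 and 3.51 RPKM in HE NSC/NPCs. For Col18a1 the log2 fold change was -0.15 (SE 0.29) and for Col15a1 0.96 (SE 0.57), and the groups overlapped for both. Over the class, 3 of 7 tested genes were higher and 4 were lower in HE. The median of their log2 fold changes was -0.15, but 0.08 without HE3 and 0.10 without NC3. Without the multiplexins, the type IV median was -0.33 over 5 genes.

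Among the other collagens, type VI collagen, a beaded filament that links cells to surrounding matrix, was led by Col6a1. It was at 107, 94.9 and 72.6 RPKM in NC and 102, 79.9 and 33.2 RPKM in HE NSC/NPCs, and its partner chain Col6a2 was at 11.3, 6.50 and 7.65 RPKM in NC and 12.7, 10.1 and 2.44 RPKM in HE NSC/NPCs. HE3 was the lowest sample for both by far, and without it the log2 fold changes were 3.4e-05 and 0.45 in place of -0.48 and -0.27. The third chain Col6a3 was at 4.68, 1.76 and 3.63 RPKM in NC and 10.1, 8.18 and 3.86 RPKM in HE NSC/NPCs. HE1 and HE2 exceeded every NC sample and HE3 lay between NC1 and NC3, giving a log2 fold change of 1.11, SE 0.45, limma adjusted p = 0.232. It was 1.51 without HE3 and 0.72 without NC2. The ratio of Col6a2 to Col6a3 was 2.42, 3.68 and 2.11 in NC and 1.26, 1.24 and 0.63 in HE NSC/NPCs, without overlap.

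Col6a5, a minor type VI chain, was at 0.577, 0.172 and 0.319 RPKM in NC and 0.172, 0.111 and 0.0594 RPKM in HE NSC/NPCs, from 9 to 102 reads per sample, with a log2 fold change of -1.03, SE 0.38, limma adjusted p = 0.219. NC2 and HE1 were close together at the edge of the groups. Col6a4 and Col6a6 averaged below 1 RPKM.

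The FACIT collagens sit on the surface of fibrils or at tissue borders and summed to 76.6, 89.7 and 89.5 RPKM in NC and to 84.4, 82.3 and 46.8 RPKM in HE NSC/NPCs. Col16a1 was at 26.6, 36.4 and 41.9 RPKM in NC and 41.0, 39.1 and 22.6 RPKM in HE NSC/NPCs. Col9a3, a chain of type IX collagen of cartilage fibrils, was at 23.0, 33.2 and 21.6 RPKM in NC and 24.2, 24.0 and 16.1 RPKM in HE NSC/NPCs. Its partner Col9a1 was at 0.925, 1.47 and 1.15 RPKM in NC and 1.65, 1.32 and 0.650 RPKM in HE NSC/NPCs, and Col9a2 at 1.31, 2.31 and 0.938 RPKM in NC and 1.71, 2.03 and 0.643 RPKM in HE NSC/NPCs. All 3 type IX genes overlapped between groups. Col9a3 was 14.6 to 24.9 times as high as Col9a1. Tcfl5 overlaps Col9a3, and its reads could have been counted there.

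Col12a1, a FACIT of dense connective tissue, was at 18.3, 7.64 and 17.8 RPKM in NC and 9.17, 9.59 and 4.24 RPKM in HE NSC/NPCs. NC1 and NC3 were high and NC2 was at the level of HE, with a log2 fold change of -0.90, SE 0.43, limma adjusted p = 0.268. Col20a1 was at 4.87, 5.62 and 4.77 RPKM in NC and 4.60, 4.05 and 0.400 RPKM in HE NSC/NPCs. Its 3 HE samples were below NC, but HE1 only narrowly, and the log2 fold change of -1.28 (SE 0.79) was -0.23 without HE3. Col22a1, a FACIT of tissue junctions, was at 1.43, 2.96 and 1.14 RPKM in NC and 1.72, 1.86 and 1.87 RPKM in HE NSC/NPCs. It had a log2 fold change of 0.09 (SE 0.33).

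Col23a1, which spans the cell membrane, was at 4.37, 7.91 and 2.01 RPKM in NC and 2.72, 2.05 and 1.72 RPKM in HE NSC/NPCs. Col26a1 was at 5.92, 2.62 and 3.69 RPKM in NC and 3.39, 2.80 and 1.14 RPKM in HE NSC/NPCs. Both were lowest in HE3, with log2 fold changes of -0.92 (SE 0.46) and -0.77 (SE 0.44), and for both the groups overlapped. Col7a1, which forms anchoring fibrils under epithelia, was at 2.58, 1.32 and 2.19 RPKM in NC and 4.08, 4.19 and 1.20 RPKM in HE NSC/NPCs, with a log2 fold change of 0.47 (SE 0.49) and 1.04 without HE3. Col8a1, a short-chain collagen of vessel walls and cornea, was at 1.36, 1.17 and 1.29 RPKM in NC and 2.80, 1.28 and 1.75 RPKM in HE NSC/NPCs. Its log2 fold change was 0.51 (SE 0.28).

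Among collagens under 1 RPKM, several had groups that did not overlap, on few reads. Col13a1, a transmembrane collagen at cell contacts, was at 0.185, 0.0794 and 0.160 RPKM in NC and 0.679, 0.467 and 0.230 RPKM in HE NSC/NPCs. These values rest on 16, 7 and 14 reads in NC and 56, 41 and 17 reads in HE, with a log2 fold change of 1.15, SE 0.37, limma adjusted p = 0.195. Col14a1, a FACIT of fibril-rich tissue, had 10, 6 and 13 reads in NC and 42, 27 and 23 reads in HE, with a log2 fold change of 0.99, SE 0.26, limma adjusted p = 0.195. Col25a1, Col28a1 and Col17a1 also had groups that did not overlap, at 0.0641 to 0.434 RPKM. Col28a1 had 7, 6 and 7 reads in NC and 10, 12 and 15 reads in HE. It passed the filter on low counts only through the HE samples, so its direction was fixed by the filter and is no support for a rise. Col14a1, Col25a1, Col28a1 and Col17a1 were named after their values were seen. The remaining genes under 1 RPKM, which are Col4a3, Col4a4, Col6a4, Col6a6, Col8a2, Col10a1, Col19a1 and Col24a1, lay between 0.0137 and 0.311 RPKM in every sample, with overlapping groups.

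By limma with Benjamini-Hochberg adjustment over 13952 genes, none of the 41 collagen genes passed an adjusted p of 0.05 with a log2 fold change of at least 1 either way, and neither did any other gene (0%). limma's voom on read counts also called 0 collagen genes, with 4 higher and 3 lower at an unadjusted p under 0.05. The paper reports differentially expressed mRNAs in both directions at the same cutoffs with DESeq2, which was not run here. The absence of calls thus holds for the tests run here. At an unadjusted p under 0.05, 4 collagen genes were higher in HE (Col3a1, Col14a1, Col6a3 and Col13a1), beside 8.68% of all genes, and 3 were lower (Col4a6, Col4a5 and Col6a5), beside 11.8%. These are 9.76 and 7.32% of the 41. With a log2 fold change of at least 1 as well, 3 were higher, beside 1.02% of all genes, and 1 was lower, beside 2.75%. Groups did not overlap for 5 collagen genes higher in HE, beside 14.8%, and for 4 lower, beside 17.9%. Col28a1, among these 5, passed the filter on low counts only through the HE samples, so its direction was fixed by the filter. Before the cutoff on fold change, the shares at an unadjusted p under 0.05 were thus near or under those of all genes. With that cutoff, the share higher in HE (7.32%) was above the 1.02% of all genes, on 3 genes, among them Col13a1 on few reads. The counts were 7 higher and 1 lower without NC1, 2 and 2 without NC2, 2 and 4 without HE1, and 4 and 1 without HE2.

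Without HE3, 26 of the 41 collagen genes were higher and 15 lower in HE. Their median log2 fold change was 0.08, beside -0.0002 over all genes, of which 6971 of 13952 were higher. With all samples, 16 were higher and 25 lower, with a median of -0.10. Col28a1, whose direction was fixed by the filter, is among the higher genes in both counts. At an unadjusted p under 0.05 without HE3, 9 collagen genes (22.0% of the 41) were higher, beside 9.35% of all genes, and 1 was lower, beside 10.5%. The higher ones were Col1a1, Col1a2, Col3a1, Col4a1, Col4a2, Col6a3, Col7a1, Col13a1 and Col14a1, and the lower one was Col4a6. Calls after adjustment were again 0 of 41. HE3 was singled out for its low collagen levels, lying below the mean log2 level of HE1 and HE2 for 36 of the 41. Leaving it out therefore raises the HE averages of most collagen genes by the choice itself. These counts are thus no independent support for a rise.

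**Figure D4:**
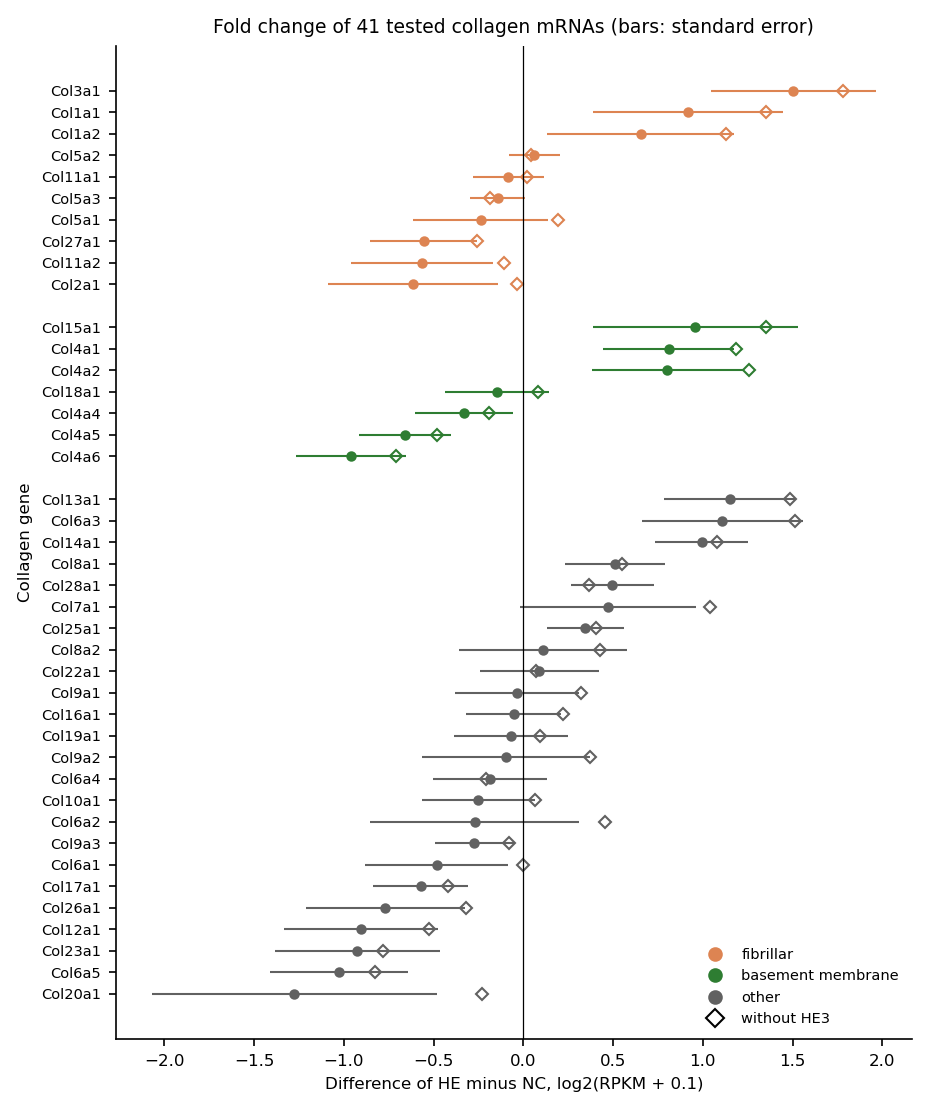
Difference of HE minus NC in log2(RPKM + 0.1) for the 41 tested collagen genes by class, with standard errors as bars and the value without HE3 as an open diamond. Col3a1 stands highest at 1.50, Col20a1 lowest at -1.28, and most diamonds lie to the right of their filled points.

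Markers of other cell types were read in the same samples, and none passed the adjusted test. A list of 20 fibroblast and mural cell markers summed to 120, 60.2 and 84.5 RPKM in NC and to 158, 142 and 77.4 RPKM in HE NSC/NPCs, HE1 and HE2 being highest, as for Col3a1, and HE3 within the NC range. Of its 16 tested members 13 were higher in HE, 6 of them at an unadjusted p under 0.05 beside 8.68% of all genes, and 9 without HE3 beside 9.35%. The 3 lower members were Prrx1 and Des, at log2 fold changes of -0.50 (SE 0.29) and -0.64 (SE 0.34), and Tagln, a smooth muscle actin-binding protein, with a log2 fold change of -0.37 (SE 0.36). Tagln was at 63.3, 30.7 and 40.3 RPKM in NC and 41.7, 43.7 and 20.1 RPKM in HE NSC/NPCs, with overlapping groups. Of the list members that mark these cells, Mgp was at 5.48, 1.54 and 3.07 RPKM in NC and 23.0, 20.5 and 7.91 RPKM in HE NSC/NPCs, Dcn at 5.96, 2.46 and 2.46 RPKM in NC and 22.3, 9.18 and 6.48 RPKM in HE NSC/NPCs and Pdgfrb at 2.21, 0.744 and 1.63 RPKM in NC and 2.52, 2.09 and 1.07 RPKM in HE NSC/NPCs. No member was at 0 reads in all samples, and Twist2 was at 0 in 4 of the 6. A list of 10 endothelial markers summed to at most 4.13 RPKM in NC and to between 4.85 and 6.45 RPKM in HE NSC/NPCs. Tie1 and Emcn were at 0 in 2 NC samples each. Of its 5 tested members 3 were higher in HE, 2 of them (Cdh5 and Esam) at an unadjusted p under 0.05 beside 8.68% of all genes. Flt1 and Erg were lower, with overlapping groups. Without HE3, 4 were higher, 3 of them at an unadjusted p under 0.05 beside 9.35%. Cdh5 was at 0.708, 0.341 and 0.755 RPKM in NC and 2.75, 1.66 and 1.95 RPKM in HE NSC/NPCs. Microglia markers, 7 in number, summed to 0.854, 0.437 and 0.350 RPKM in NC and to 3.30, 1.56 and 8.16 RPKM in HE NSC/NPCs, without overlap and with HE3 highest. C1qa, C1qb and Tyrobp made up most of the HE sums, on at most 53 reads per sample. Csf1r, Cx3cr1, Aif1 and Ptprc overlapped between groups, and Aif1 averaged 0.138 RPKM in NC and 0.123 RPKM in HE NSC/NPCs. No microglia marker was at 0 reads in all samples. All 3 that could be tested averaged higher in HE, 1 of them at an unadjusted p under 0.05, beside 8.68% of all genes. That one was C1qb, a complement subunit of microglia, at 0.0979, 0 and 0 RPKM in NC and 1.13, 0.578 and 2.00 RPKM in HE NSC/NPCs, with a limma adjusted p = 0.195. C1qb passed the filter on low counts only through the HE samples, so its direction was fixed by the filter and is no support for a rise. Of tested markers, 2 of 6 for astrocytes, 2 of 7 for the oligodendrocyte lineage and 3 of 8 for neurons were higher in HE. For choroid plexus 0 of 4 and for chondrocytes 1 of 4 were higher, beside 43.8% of all genes. Without HE3 these counts were 2, 5, 3, 2 and 1, beside 50.0% of all genes. With all samples, 2 neuron markers (Map2 and Elavl4) and 1 astrocyte marker (S100b) were higher at an unadjusted p under 0.05, beside 8.68% of all genes. At that cutoff 1 chondrocyte marker (Matn3) was lower, beside 11.8%, and no other member of these lists met it. In these bulk samples, fewer cells of a type and less RNA per cell cannot be told apart, and the part of other cell types in the collagen differences was not tested.

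The genes that make, cut, bind and break down collagen were taken from 5 lists. In the list of synthesis and secretion, 10 of 23 tested genes were higher and 13 lower, with 4 and 3 at an unadjusted p under 0.05, beside 8.68 and 11.8% of all genes. Without HE3, 13 were higher and 10 lower, the median log2 fold change was 0.12 in place of -0.14, and 7 and 3 were at an unadjusted p under 0.05, beside 9.35 and 10.5% of all genes. Serpinh1, the collagen chaperone HSP47, was at 333, 279 and 374 RPKM in NC and 429.9, 455 and 616 RPKM in HE NSC/NPCs. All HE samples were above NC, with a log2 fold change of 0.60, SE 0.19, limma adjusted p = 0.196. P4hb, a subunit of the enzyme that hydroxylates collagen prolines, was at 429, 432 and 432 RPKM in NC and 405, 485 and 364 RPKM in HE NSC/NPCs, and P4ha1, its catalytic partner, was at 108, 116 and 129.6 RPKM in NC and 137, 148 and 37.8 RPKM in HE NSC/NPCs. HE3 was far below the others for P4ha1 (log2 fold change -0.36, SE 0.49, and 0.27 without HE3). Ppib, a prolyl isomerase that aids collagen folding, was at 142, 146 and 134 RPKM in NC and 162, 144 and 180.5 RPKM in HE NSC/NPCs. P4ha3, another catalytic subunit, was at 3.57, 3.13 and 1.94 RPKM in NC and 1.60, 0.970 and 1.07 RPKM in HE NSC/NPCs, without overlap, with a log2 fold change of -1.17, SE 0.29, limma adjusted p = 0.195.

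Among 15 genes of trimming and cross-linking, 6 were higher and 9 lower, with 1 and 4 at an unadjusted p under 0.05 (6.67 and 26.7%), beside 8.68 and 11.8% of all genes. Tll1, among the 6 higher on 7 to 14 reads per sample, passed the filter on low counts only through the HE samples. Bmp1, which cuts the tail of fibrillar procollagens, was at 115, 124 and 114 RPKM in NC and 81.8, 75.9 and 73.0 RPKM in HE NSC/NPCs. These groups did not overlap and spread little within each, with a log2 fold change of -0.62, SE 0.10, limma adjusted p = 0.195. Loxl1, a cross-linking enzyme, was at 60.9, 17.7 and 45.3 RPKM in NC and 20.8, 11.7 and 10.1 RPKM in HE NSC/NPCs, with a log2 fold change of -1.43, SE 0.47, limma adjusted p = 0.198. Only HE1 reached the NC range, above NC2. Sparc, a collagen-binding matrix protein, was at 290.0, 344 and 239.8 RPKM in NC and 279, 254 and 271 RPKM in HE NSC/NPCs. Pxdn, which makes the sulfilimine cross-links of type IV collagen, was at 32.3, 24.6 and 30.3 RPKM in NC and 30.9, 25.9 and 16.8 RPKM in HE NSC/NPCs. For both, the groups overlapped.

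Among collagen receptors, 5 of 11 tested genes were higher and 6 lower, with 1 and 2 at an unadjusted p under 0.05 (9.09 and 18.2%), beside 8.68 and 11.8% of all genes. The counts were 2 and 2 without HE3, beside 9.35 and 10.5%. Ddr1, a receptor tyrosine kinase that binds fibrillar and type IV collagens, was at 149, 181 and 120.2 RPKM in NC and 82.6, 95.1 and 57.0 RPKM in HE NSC/NPCs. Its HE samples were all below NC, with a log2 fold change of -0.95, SE 0.23, limma adjusted p = 0.195. Itgb1, the beta chain of the collagen-binding integrins, was at 79.3, 85.5 and 101 RPKM in NC and 121, 108 and 121 RPKM in HE NSC/NPCs. Here all HE samples were above NC, with a log2 fold change of 0.41, SE 0.13, limma adjusted p = 0.195. Adgrg1, the receptor for Col3a1, was at 77.5, 67.8 and 83.2 RPKM in NC and 68.0, 74.0 and 57.7 RPKM in HE NSC/NPCs, with a log2 fold change of -0.20 (SE 0.14). Mrc2, which takes up collagen for breakdown, was at 15.2, 10.6 and 13.2 RPKM in NC and 10.1, 11.2 and 6.63 RPKM in HE NSC/NPCs.

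Of 12 tested genes of collagen breakdown, 7 were higher and 5 lower, with 3 and 2 at an unadjusted p under 0.05 (25.0 and 16.7%), beside 8.68 and 11.8% of all genes. Fap, among these 3, was at 0.0471, 0.0461 and 0.00932 RPKM in NC and 0.256, 0.130 and 0.110 RPKM in HE NSC/NPCs. It passed the filter on low counts only through the HE samples, so its direction was fixed by the filter and is no support for a rise. Ctsk, a cysteine protease that cuts fibrillar collagen, was at 2.96, 1.31 and 2.79 RPKM in NC and 12.3, 8.81 and 5.43 RPKM in HE NSC/NPCs. It had a log2 fold change of 1.87, SE 0.39, limma adjusted p = 0.195, without overlap. Timp4, an inhibitor of matrix metalloproteinases, was at 3.60, 8.40 and 6.10 RPKM in NC and 11.8, 14.4 and 30.3 RPKM in HE NSC/NPCs, and Timp2, another inhibitor, was at 29.8, 27.9 and 19.9 RPKM in NC and 18.7, 15.2 and 12.7 RPKM in HE NSC/NPCs. Groups did not overlap for either, in opposite directions, with log2 fold changes of 1.58 (SE 0.42) and -0.73 (SE 0.20), limma adjusted p = 0.195 for each. The membrane-bound proteases Mmp14 and Mmp15 were at 69.1, 53.7 and 57.8 RPKM in NC and 48.9, 45.7 and 33.1 RPKM in HE NSC/NPCs, and at 40.5, 39.0 and 47.1 RPKM in NC and 38.2, 61.9 and 69.5 RPKM in HE NSC/NPCs. Timp1 was at 120.1, 192 and 103 RPKM in NC and 128, 76.2 and 112 RPKM in HE NSC/NPCs, with overlapping groups.

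Of 8 tested proteins that bind fibrils, 4 were higher and 4 lower, with 2 and 3 at an unadjusted p under 0.05 (25.0 and 37.5%), beside 8.68 and 11.8% of all genes. The median log2 fold change was -0.06, and 0.07 without HE3. Thbs2, a matricellular protein needed for ordered fibrils, was at 157, 161 and 119 RPKM in NC and 78.2, 39.3 and 80.2 RPKM in HE NSC/NPCs. All HE samples were below NC, with a log2 fold change of -1.20, SE 0.29, limma adjusted p = 0.195. Tnxb, which spaces fibrils, was at 1.44, 1.56 and 1.40 RPKM in NC and 0.462, 0.528 and 0.107 RPKM in HE NSC/NPCs, and Prelp, a proteoglycan of basement membrane borders, was at 1.96, 1.39 and 1.49 RPKM in NC and 1.04, 0.580 and 0.585 RPKM in HE NSC/NPCs. Both were lower without overlap, with log2 fold changes of -1.90 (SE 0.42) and -1.07 (SE 0.27). Dcn, which coats fibrils and also stands in the fibroblast list above, was higher in every HE sample, with a log2 fold change of 1.70, SE 0.51, limma adjusted p = 0.195. Postn was at 1.07, 0.288 and 0.558 RPKM in NC and 2.85, 1.97 and 0.743 RPKM in HE NSC/NPCs, and Bgn, the relative of Dcn, at 2.33, 0.565 and 1.31 RPKM in NC and 2.83, 2.88 and 0.857 RPKM in HE NSC/NPCs. Fbln1 was at 11.9, 7.37 and 10.2 RPKM in NC and 9.14, 11.45 and 9.07 RPKM in HE NSC/NPCs, a log2 fold change of 0.03 (SE 0.20). None of the genes of the 5 lists passed the adjusted test.

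**Figure D5:**
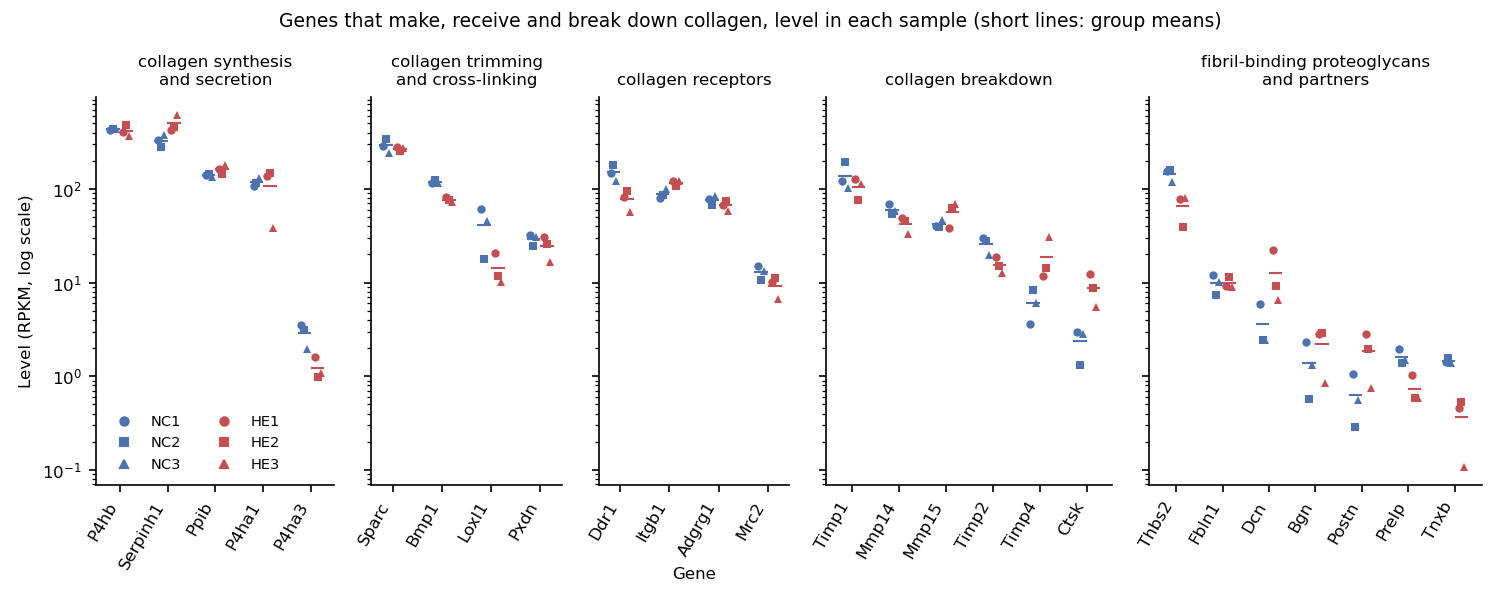
RPKM on a log axis of the named genes that make, trim, receive, break down or bind collagen, in each sample, with group means as short lines. Ctsk, Timp4 and Serpinh1 have every HE point above NC, and Bmp1, Ddr1, Thbs2 and Tnxb have every HE point below NC.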

How the data were processed

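RNA-Seq of 3 HE and 3 NC samples was used. The authors filtered the reads and aligned them with TopHat2 to the mouse genome (mm10), and the submitters' processing notes also list CASAVA 1.7. The counting tool, the annotation and the use of strand are not given in the sources used here. The paper and the labels name different sequencers. The deposited table holds raw read counts per gene. Beside each it holds the authors' RPKM, that is the count scaled by gene length and library total, and the values differed from this formula by at most 4.99e-07. Counts of 1000 or more carry commas and were recorded under the unit other, and no count model was chosen as the main test. With the commas removed, the counts were used for the filter, median-of-ratios scaling and voom.

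Symbols were found for 21781 identifiers. The test was limma 3.58.1 (R 4.3.3) on log2(RPKM + 0.1) with the trend option, group as the only term and Benjamini-Hochberg adjustment over all 13952 genes with at least 10 reads, scaled to a library of median size, in 3 samples and 15 reads in all. Fold changes on this scale understate the change of low genes. A call needed an adjusted p under 0.05 and a log2 fold change of 1 or more in size. The fit was tested on simulated data. Alternatives were a pseudocount of 1, median-of-ratios scaling, both looser and stricter filters, a replicate block, limma's voom on the read counts, leaving out each sample, and the type IV genes alone. Values per sample are given for every collagen gene with a mean of at least 1 RPKM and for each past 1 in log2 fold change, up or down, at an unadjusted p under 0.05, 31 in all. From each list of related genes the 4 with the highest mean were named, with those that met the second criterion. Marker genes of other cells were named after their values were seen. The members and lists were chosen with earlier results of these data known. Positions and sequences are from RefSeq on GRCm38.p6, and all 44 genes had a position. Limits from read depth cover counting error only.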

Additional observations from a re-analysis of the deposited data

How the results depend on the processing

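No collagen gene passed the adjusted test under any alternative tried. With at least 10 reads in every sample, 2 in place of 4 collagen genes were higher at an unadjusted p under 0.05, because fewer genes on few reads were tested, and the basement membrane median log2 fold change was 0.33 in place of -0.15, with Col4a4 no longer tested. Leaving out each sample in turn gave 2 to 9 higher and 1 to 4 lower genes. The 9 came without HE3, and 7 were higher without NC1.

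The replicate numbers were not taken as pairs. Deviations from the group means of samples with the same number correlated by 0.156, 0.0869 and 0.0603, each sample doing so best with its own number, and nothing in the labels links them. With a replicate block, 5 genes were higher and 4 lower at an unadjusted p under 0.05.

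Of 31 single genes, 21 kept their direction in every alternative and 10 did not. Median-of-ratios scaling, which moved the median of all genes from -0.06 to -0.0014, gave Col16a1 a log2 fold change of 0.0082 and Col9a1 of 0.020. Leaving out each sample gave -0.38 to 0.10 for Col18a1, -0.035 to 0.17 for Col5a2, -0.26 to 0.069 for Col11a1, -0.51 to 0.20 for Col5a1, -0.81 to 3.4e-05 for Col6a1, -0.24 to 0.22 for Col16a1, -0.72 to 0.45 for Col6a2, -0.18 to 0.47 for Col22a1, -0.39 to 0.37 for Col9a2 and -0.29 to 0.32 for Col9a1. The cause of these reversals was not tested.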
